A study of Mus musculus with 20 samples.

Results

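The comparison described here is the genotype by exercise interaction in mouse gastrocnemius, a calf muscle. It asks whether a single bout of treadmill running moved RNA levels by the same amount in muscle labelled as lacking BMAL1 as in vehicle-treated muscle. It was computed for each gene as a difference of differences, the exercise response of the knockout-labelled samples minus the exercise response of the vehicle samples, on the log2 scale. A negative value means that exercise raised the gene by a smaller fold, or lowered it by a larger fold, in the knockout-labelled samples. All 20 of the 20 samples of the series enter this contrast, 5 in each of 4 groups.

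Every sample, controls included, carries the genotype label Cre+:iMSBmal1 fl/fl, so all groups share the Cre transgene and the floxed Bmal1 alleles. The vehicle rest group (n = 5) received vehicle and no exercise, and the vehicle exercise group (n = 5) received vehicle and exercise. The knockout rest group (n = 5) carries the treatment label iMSBmal1KO and no exercise, and the knockout exercise group (n = 5) carries iMSBmal1KO and exercise. Resting muscle was labelled zeitgeber time 13, counted in hours from lights on. Exercised muscle was taken 1 h after a run of 30 min and carries the same zeitgeber label. The titles and treatments of the 5 exercised knockout-labelled samples speak of acute exercise, while a second label field calls them trained, and they were analysed as acute exercise. The promoter that drives Cre, the inducing agent and the age of the mice are not given in the sources used here. Nothing in the labels says that the samples of a group came from separate animals, so p-values measure the spread between these samples.

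BMAL1, encoded by Arntl, pairs with CLOCK and activates genes through E-box sequences, among them the PER and CRY repressors, the REV-ERB receptors and the PAR bZIP factors DBP, TEF and HLF. The REV-ERB receptors in turn hold down Arntl, Npas2 and Nfil3. Muscle contraction raises calcium and cyclic AMP, and within the first hour it switches on immediate early genes of the AP-1, EGR and NR4A families, CREB targets, heat shock proteins and metallothioneins. Glucocorticoids, which rise in blood during running, act on muscle through the receptor NR3C1.

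Libraries held between 8045154 and 11269812 counts each, and mitochondrially encoded genes took 7.55 to 15.0% of the counts. Myh4, Tnnt3 and Actn3 were among 10 fast-fibre markers whose summed level was at least 89666 CPM in every library (counts scaled to a common library total). The targeted gene did not separate the labels. Arntl ran from 9.74 to 14.9 CPM in vehicle rest, 7.90 to 21.4 in vehicle exercise, 12.1 to 16.4 in knockout rest and 11.5 to 21.2 in knockout exercise. A count over the whole gene checks the labels only where the deleted part holds the reads, and the deleted exons are not given in the sources used here, so the samples are called knockout-labelled throughout. The clock itself did differ with the label: Hlf, an E-box target, was lower in knockout-labelled muscle at rest by a log2 fold change of -1.79 (edgeR adjusted p = 3.43e-07), and Npas2, a REV-ERB-repressed gene, was higher by 4.57 (edgeR adjusted p = 2.86e-06). Markers of slow fibres varied widely inside every group. Their 10 summed levels ran from 105 to 2821 CPM in vehicle rest, 51.1 to 2785 in vehicle exercise, 298 to 4217 in knockout rest and 78.6 to 2830 in knockout exercise. The 5 libraries with the lowest level (vehicle rest replicate 5, vehicle exercise replicates 2 and 4, knockout exercise replicates 2 and 4) were left out in an alternative chosen after seeing the data, and values from it are given as those without the slow-poor libraries. In bulk muscle, fewer cells of a type and less RNA per cell cannot be told apart.

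Among all genes, 0 of 13560 (0%) passed an adjusted p of 0.05 for the interaction in edgeR's quasi-likelihood test, and the lowest adjusted p was 0.275. At an unadjusted p under 0.05 there were 791 genes (5.83%), 440 with a negative difference (3.24%) and 351 with a positive one (2.59%). The excess of negative ones turned with the scaling, to 315 negative and 429 positive with library size only and 396 and 399 with upper-quartile scaling. DESeq2 called 3 of 13558 genes (0.0221%), Nfil3, Sik1 and Mrps6, and limma-voom called 0. The parts of the contrast were unlike in size. Exercise in vehicle called 109 genes (0.804%), exercise in knockout-labelled muscle called 0 (0%), and the genotype difference called 523 genes at rest (3.86%) and 870 after exercise (6.42%). A gene called in vehicle and not in knockout-labelled muscle is not thereby shown to differ between them, since only the interaction tests that.

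The interaction was measured less precisely than either response. Its standard error (SE) had a median of 0.239 log2 units, against 0.169 for exercise in vehicle and 0.170 for exercise in knockout-labelled muscle. The median SE was 0.147 where mean log2 CPM reached 5 or more and 0.555 where it stayed under 1. For 70.1% of genes (9507) the 95% interval lay wholly within 1 log2 unit of 0, and for 39.8% it lay within a 1.5-fold change. A difference of 1 log2 unit was therefore outside the interval for most genes. The interval reached a median of 0.50 log2 units to either side. The median difference over all genes was 0.00.

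**Figure D1:**
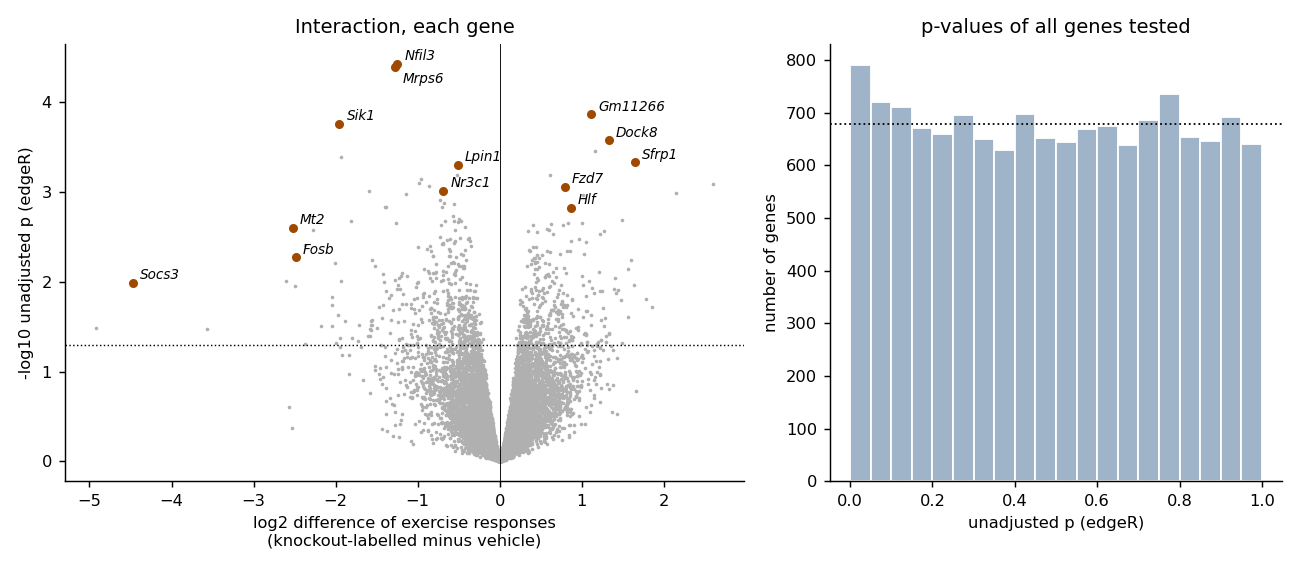
Left, each of the 13560 genes by its log2 difference of exercise responses (x axis, knockout-labelled minus vehicle) and the negative log10 of its unadjusted edgeR p (y axis), with the dotted line at a p of 0.05 and named genes in brown. Right, the number of genes in each p-value bin of width 0.05, with 791 in the lowest bin and a dotted line at 678, the number in each bin of an even spread.

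The clock list gave the gene with the smallest interaction p. Nfil3, a bZIP repressor that competes with DBP, TEF and HLF for D-box sites, was at 26.8, 38.4, 33.4, 26.1 and 22.2 CPM in vehicle rest and at 79.1, 97.5, 106, 125 and 75.7 CPM in vehicle exercise. In knockout rest it was at 94.8, 80.3, 50.5, 72.5 and 81.9 CPM, and in knockout exercise at 99.4, 92.1, 123, 90.7 and 120 CPM. The vehicle rest samples thus stood below all 15 others, and the remaining 3 groups overlapped. How many of all genes have a group set apart in this way was not counted, here or for Lpin1, Rps16 and Fzd7 below. Each of these genes was picked for its small interaction p, which favours such a pattern. Nfil3 rose with exercise in vehicle by 1.72 log2 units (edgeR adjusted p = 3.58e-05), and its response in knockout-labelled muscle was 0.47 (edgeR adjusted p = 1.00). At rest it was higher in knockout-labelled muscle by 1.37 (edgeR adjusted p = 3.01e-05), and after exercise the genotypes differed by 0.12 (edgeR adjusted p = 0.758). The interaction was -1.25 (SE 0.24, 95% interval -1.75 to -0.75), which did not pass in edgeR (adjusted p = 0.275) and passed in DESeq2 (adjusted p = 0.00351). Without the slow-poor libraries it was -0.88.

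Hlf had the reverse pattern. It was at 24.1, 22.2, 17.8, 24.0 and 26.8 CPM in vehicle rest, 15.0, 15.2, 12.9, 11.6 and 18.8 in vehicle exercise, 6.47, 4.37, 9.30, 6.58 and 6.39 in knockout rest and 8.45, 8.20, 5.69, 9.45 and 7.11 in knockout exercise. Both vehicle groups lay above both knockout-labelled groups, and the vehicle exercise values were below the vehicle rest values but for 1 sample inside the resting range. The interaction was 0.87 (SE 0.24, edgeR adjusted p = 0.701). Bhlhe40, which encodes the E-box repressor DEC1, differed by 0.77 (SE 0.30): it was at 70.8 to 89.6 CPM in vehicle rest, 53.3 to 77.0 in vehicle exercise, 20.5 to 44.5 in knockout rest and 22.5 to 58.4 in knockout exercise. The genotype difference of Bhlhe40 was -1.25 at rest (edgeR adjusted p = 0.00138) and -0.48 after exercise (edgeR adjusted p = 0.213).

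Of the 13 E-box genes tested, 10 had a positive interaction, with a median of 0.20 against 0.00 for all genes. The median was 0.10 without knockout exercise replicate 1 and 0.39 without the slow-poor libraries. At an unadjusted p under 0.05, 2 were positive (Hlf and Bhlhe40) and 1 negative (Usp2). The PAR bZIP and REV-ERB members that did not reach that p leaned the same way, with Dbp at 0.27 (SE 0.14), Tef at 0.14 (SE 0.12) and Nr1d1 at 0.32 (SE 0.19), while Nr1d2 was at -0.13 (SE 0.24). Among the period genes, Per1 had almost equal responses of 1.03 in vehicle and 1.04 in knockout-labelled muscle. The interaction of Per1 was 0.01 (SE 0.41), and Per3 differed by 0.57 (SE 0.29). Usp2, a deubiquitinase and clock output gene, was at 135 to 183 CPM in vehicle rest, 225 to 354 in vehicle exercise, 87.4 to 113 in knockout rest and 105 to 147 in knockout exercise. Usp2 rose in vehicle by 0.79 (edgeR adjusted p = 0.00179) and had a response of 0.30 in knockout-labelled muscle. Its interaction was -0.49 (SE 0.17), and -0.13 without the slow-poor libraries. Of the 6 REV-ERB-repressed genes tested, Npas2 (-1.60, SE 0.74) was the other one beside Nfil3 at an unadjusted p under 0.05. Npas2 had 5 vehicle rest values of 0 to 0.348 CPM and 5 vehicle exercise values of 0.0937 to 0.683 CPM, so its vehicle response rests on few reads. Cry1, Clock and Arntl lay between -0.04 and 0.01.

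The promoter stretches below are shown because Nfil3 had the smallest interaction p, because Nr4a1, Nr4a2 and Fosb, known CREB-responsive early genes, had smaller responses in knockout-labelled muscle, and because Hlf is the clock output gene with the opposite sign. Each is the 250 bases before the RefSeq start (build GRCm38.p6), read 5′ to 3′ on the gene's strand. Capitals mark the full cyclic AMP response element TGACGTCA (CRE), its half-site TGACG, the E-box CACGTG or the D-box TTATGTAA, each searched on both strands, so that CGTCA is the half-site on the other strand.
Nfil3 (chr13:52981040-52981289, minus strand): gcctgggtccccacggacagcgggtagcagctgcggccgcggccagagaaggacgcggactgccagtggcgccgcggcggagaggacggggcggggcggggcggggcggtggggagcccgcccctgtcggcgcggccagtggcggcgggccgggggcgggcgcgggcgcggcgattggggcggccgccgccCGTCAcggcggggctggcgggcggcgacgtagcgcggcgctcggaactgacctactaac
Nr4a1 (chr15:101266596-101266845, plus strand): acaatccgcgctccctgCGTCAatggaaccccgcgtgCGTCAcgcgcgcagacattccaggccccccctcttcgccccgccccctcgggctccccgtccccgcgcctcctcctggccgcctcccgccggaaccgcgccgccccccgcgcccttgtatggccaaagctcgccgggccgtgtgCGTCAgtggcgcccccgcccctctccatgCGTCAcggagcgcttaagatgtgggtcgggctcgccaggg
Nr4a2 (chr2:57124004-57124253, minus strand): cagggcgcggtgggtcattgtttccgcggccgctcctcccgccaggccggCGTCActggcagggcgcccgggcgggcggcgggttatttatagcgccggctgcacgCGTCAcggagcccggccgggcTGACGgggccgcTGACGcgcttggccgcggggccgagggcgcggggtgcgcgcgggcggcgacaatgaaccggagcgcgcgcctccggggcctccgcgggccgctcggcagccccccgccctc
Fosb (chr7:19310046-19310295, minus strand): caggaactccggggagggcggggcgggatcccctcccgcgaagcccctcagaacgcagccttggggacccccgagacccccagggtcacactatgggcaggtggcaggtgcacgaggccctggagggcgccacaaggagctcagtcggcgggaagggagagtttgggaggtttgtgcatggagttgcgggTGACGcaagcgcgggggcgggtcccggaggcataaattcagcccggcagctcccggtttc
Hlf (chr11:90390918-90391167, minus strand): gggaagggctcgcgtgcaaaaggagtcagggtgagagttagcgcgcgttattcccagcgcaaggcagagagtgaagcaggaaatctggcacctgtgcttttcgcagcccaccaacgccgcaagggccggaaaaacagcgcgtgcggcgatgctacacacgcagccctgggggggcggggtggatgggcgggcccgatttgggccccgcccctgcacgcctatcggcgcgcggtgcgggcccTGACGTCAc
The half-site occurred 1 time in the Nfil3 and Fosb stretches and 4 times in those of Nr4a1 and Nr4a2, and the Hlf stretch held 1 full CRE just before its start and no E-box or D-box. Other genes with negative differences went both ways. Junb and Btg1 held the half-site, and Pde4d, Fosl2, Lpin1 and Mrps6 did not. Sik1 and Crem had no promoter in the set searched. Among the 9726 tested genes with a RefSeq promoter, 30.5% held the half-site in this window, 2.94% the full CRE and 9.92% the E-box. The 100 genes with the smallest p in each direction were taken at a mean log2 CPM of at least 1, a limit not set on the 9726. The half-site was in 45.0% of the negative set, against 25% of the positive set. The full CRE was in 3.0% of either set, and the E-box in 10 and 9%. The mean GC content was 60.5% in the negative set, 59.0% in the positive set and 59.8% in all tested genes. These shares are descriptions of letters in a fixed window and no test was run on them.

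**Figure D2:**
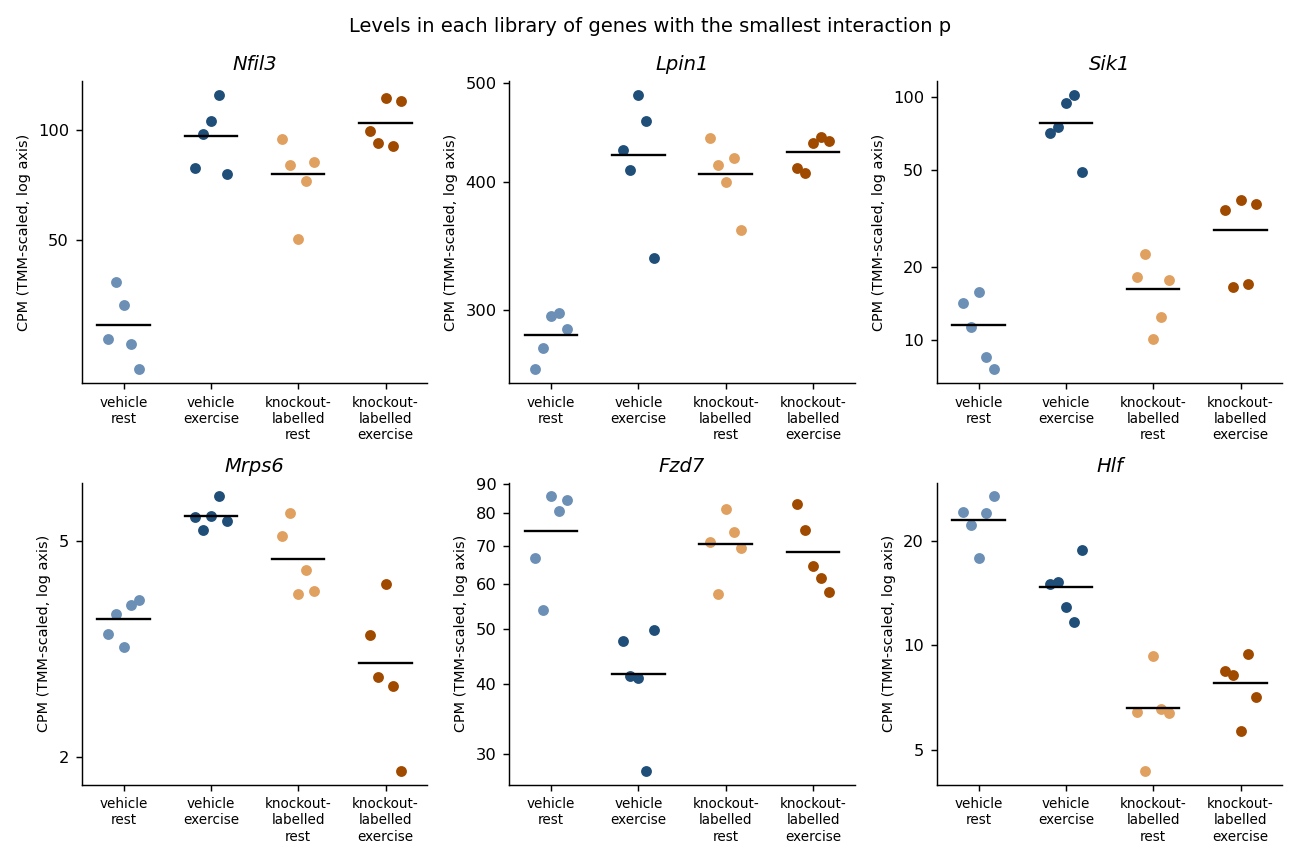
TMM-scaled CPM (y axis, log scale) of 6 genes in each of the 20 libraries, by group (x axis), with a bar at the group mean. Nfil3 and Lpin1 are low only in vehicle rest, Sik1 is highest in vehicle exercise, Mrps6 is lowest on average in knockout exercise, Fzd7 is low only in vehicle exercise, and Hlf is lower in both knockout-labelled groups.

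Sik1, the CREB-pathway gene with the smallest interaction p, had a different shape from Nfil3. It encodes salt-inducible kinase 1, a CREB target that feeds back on CREB coactivators. Sik1 was at 14.2, 11.3, 15.7, 8.49 and 7.55 CPM in vehicle rest and at 70.8, 74.9, 94.1, 102 and 48.8 CPM in vehicle exercise. In knockout rest it was at 18, 22.5, 10.1, 12.4 and 17.6 CPM, and in knockout exercise at 34.1, 16.4, 37.6, 16.9 and 36.3 CPM. The resting groups overlapped, and every vehicle exercise sample lay above every knockout exercise sample. Sik1 rose by 2.77 in vehicle (edgeR adjusted p = 0.000105), and its response in knockout-labelled muscle was 0.82 (edgeR adjusted p = 1.00). The genotype difference after exercise was -1.46 (edgeR adjusted p = 0.00339). The interaction was -1.95 (SE 0.41, 95% interval -2.82 to -1.09), with an adjusted p of 0.595 in edgeR and 0.00351 in DESeq2. It was -1.35 without the slow-poor libraries.

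The other genes of the CREB and SIK list were mixed, with 10 of 16 negative and a median of -0.09. Crem, a CREB family member whose short form is a cyclic AMP-induced repressor, was at 4.68 to 7.42 CPM in vehicle rest, 7.12 to 20.5 in vehicle exercise, 5.65 to 9.08 in knockout rest and 6.83 to 9.58 in knockout exercise. Crem rose in vehicle by 1.10 (edgeR adjusted p = 0.00935), its response in knockout-labelled muscle was 0.23, and the interaction was -0.87 (SE 0.30). Its exons overlap those of Gm6225 on the other strand, and strand use in counting is not given in the sources used here. Pde4d, a cyclic AMP phosphodiesterase, was called in vehicle (0.85, edgeR adjusted p = 0.000191) and had a response of 0.44 in knockout-labelled muscle, where its resting and exercised samples did not overlap either. Its interaction was -0.41 (SE 0.16). The kinases Sik2 (-0.20, SE 0.22) and Sik3 (0.08, SE 0.14) and the coactivators Crtc1 (0.13, SE 0.24) and Crtc2 (0.06, SE 0.16) had intervals around 0.

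All 3 NR4A orphan nuclear receptors, early response genes of contracting muscle, had negative differences. Nr4a2 was at 0.348, 0.179, 0.981, 0 and 1.33 CPM in vehicle rest, 26.5, 11.4, 25.2, 19.0 and 7.78 in vehicle exercise, 1.24, 1.03, 0.332, 0.647 and 0.426 in knockout rest and 7.29, 2.16, 4.70, 1.89 and 4.37 in knockout exercise. Within both genotypes the exercised samples of Nr4a2 lay above the resting ones, and every vehicle exercise value lay above every knockout exercise value. At rest Nr4a2 had 0 to 12 counts per library in vehicle and 3 to 10 in knockout-labelled muscle, so its resting levels rest on few reads. Its response was 4.97 in vehicle (edgeR adjusted p = 9.15e-05) and 2.48 in knockout-labelled muscle (edgeR adjusted p = 0.813), and the interaction was -2.49 (SE 0.89, edgeR adjusted p = 0.779).

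Nr4a1 was at 163, 112, 283, 96.8 and 110 CPM in vehicle rest, 374, 451, 374, 485 and 290 in vehicle exercise, 178, 93.3, 116, 159 and 127 in knockout rest and 215, 218, 203, 196 and 198 in knockout exercise. Here too neither genotype had an overlap between rest and exercise, and the exercised knockout-labelled samples lay below all exercised vehicle samples. The interaction of Nr4a1 was -0.76 (SE 0.34), and -0.47 without the slow-poor libraries. Non-overlap of rest and exercise within a single genotype occurred in 276 genes in vehicle (2.04%) and 115 genes in knockout-labelled muscle (0.848%). A further share, 1.95% of genes, gives those separated in vehicle while overlapping in knockout-labelled muscle. The share of all genes with vehicle exercise wholly above knockout exercise, as for Nr4a1 and Nr4a2, was not counted. Nr4a3 differed by -0.87 with an SE of 1.14. The median of the family was -0.87. It was -2.34 without vehicle rest replicate 3, the library with the highest resting Nr4a1, and -0.63 without vehicle rest replicate 4.

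The AP-1 and ATF list had 8 of 10 genes below 0 and a median of -0.58, with 3 members at an unadjusted p under 0.05, all negative. The median was -0.36 without knockout rest replicate 2, and -0.32 with 6 of 10 negative without the slow-poor libraries. Fosb, a FOS family subunit, was at 0.179 to 0.491 CPM in vehicle rest, 2.46, 1.82, 5.01, 1.83 and 1.59 in vehicle exercise, 0 to 0.539 in knockout rest and 0 to 0.694 in knockout exercise. Only the vehicle exercise samples of Fosb stood apart. Fosb had 2 to 4 counts per library in vehicle rest, 0 to 5 in knockout rest and 0 to 6 in knockout exercise, so its responses rest on few reads. Its vehicle response was 2.78 (edgeR adjusted p = 0.00588) and its knockout-labelled response 0.29, with an interaction of -2.49 (SE 0.81). Junb, a JUN family subunit, was at 5.92, 3.14, 4.41, 2.46 and 2.78 CPM in vehicle rest, 8.21, 19.6, 16.9, 70.3 and 8.62 in vehicle exercise, 3.73, 3.91, 2.44, 2.91 and 3.73 in knockout rest and 5.21, 7.34, 4.49, 5.13 and 4.63 in knockout exercise. Exercised samples of Junb lay above resting ones in both genotypes, and vehicle exercise replicate 4 was far above the rest. The interaction of Junb was -2.04 (SE 0.75), and -1.15 without that library or -0.97 without the slow-poor libraries. Fosl2 differed by -0.95 (SE 0.39), by -0.53 without vehicle exercise replicate 4 and by -0.36 without the slow-poor libraries, and Fos itself by -0.91 with an SE of 0.85. Jun (-0.01, SE 0.34), Jund (0.05, SE 0.27) and Atf3 (0.15, SE 0.88) had differences near 0.

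Other immediate early genes differed less. Of 19 tested, 12 were negative, with a median of -0.19 that went to 0.01 without the slow-poor libraries. Btg1, an antiproliferative gene, was at an unadjusted p under 0.05 (-0.64, SE 0.20, and -0.43 without those libraries). Egr1, a zinc-finger immediate early factor, had the opposite sign (0.73, SE 0.53), with responses of 0.65 in vehicle and 1.39 in knockout-labelled muscle, neither of which passed.

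**Figure D3:**
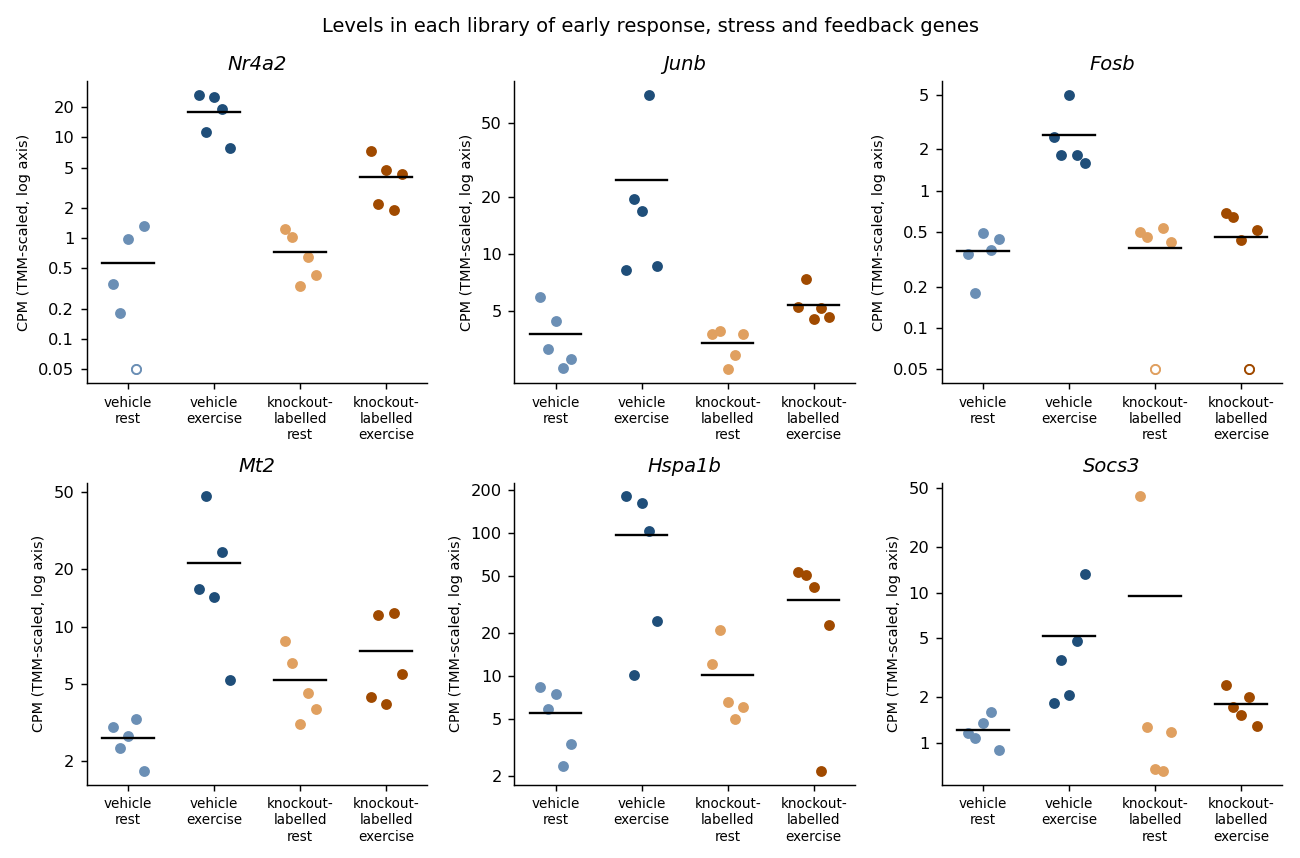
TMM-scaled CPM (y axis, log scale) of 6 genes in each of the 20 libraries, by group (x axis), with a bar at the group mean and open circles, drawn at 0.05, for libraries with no count. Nr4a2, Junb, Fosb and Mt2 have their highest mean in vehicle exercise, Hspa1b is widely spread there, and Socs3 is set apart by knockout rest replicate 1 at 43.8 CPM.

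The glucocorticoid list, the receptor and genes it is known to induce in muscle, had 13 of 16 members below 0 and a median of -0.50. At an unadjusted p under 0.05 there were 5 negative members and 0 positive ones. Without the slow-poor libraries 12 members were negative, 4 of them at that p, and the median was -0.21. Nr3c1, the receptor, was at 70.2, 72.3, 77.0, 62.7 and 63.8 CPM in vehicle rest, 80.7, 141, 107, 123 and 84.4 in vehicle exercise, 58.3, 80.8, 72.5, 70.1 and 65.6 in knockout rest and 65.7, 69.4, 61.5, 78.5 and 58.8 in knockout exercise. Every vehicle exercise value of Nr3c1 lay above all resting vehicle values and all knockout exercise values, while both knockout-labelled groups overlapped. Nr3c1 rose in vehicle by 0.63 (edgeR adjusted p = 0.0154), its knockout-labelled response was -0.06, and the interaction was -0.69 (SE 0.18, edgeR adjusted p = 0.671).

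Among the receptor's known targets, Foxo1, a transcription factor of muscle atrophy, was at 15.3 to 34.3 CPM in vehicle rest, 39.1, 73.2, 72.7, 117 and 53.5 in vehicle exercise, 19.8 to 34.7 in knockout rest and 21.3 to 42.9 in knockout exercise. Its interaction was -1.03 (SE 0.41), and -0.29 without the slow-poor libraries. Fbxo32, the muscle ubiquitin ligase atrogin-1, differed by -0.65 (SE 0.24), and Zbtb16 by -0.50 (SE 0.23). Ddit4, an mTORC1 inhibitor, had a difference of -1.84 but an SE of 0.93, and of -0.69 without the slow-poor libraries, with 41.4 to 247 CPM in vehicle exercise and 4.14 to 79.7 CPM in knockout rest. Fkbp5, a standard glucocorticoid target, differed by -0.50 (SE 0.35), Tsc22d3 by -0.18 (SE 0.31) and Sgk1 by 0.74 (SE 0.44). In the overlapping list of atrophy and protein breakdown genes 14 of 16 were negative, with a median of -0.12. The ligase Trim63 (MuRF1) differed by -0.50 (SE 0.28), and the autophagy genes Map1lc3b (-0.12, SE 0.10), Sqstm1 (-0.06, SE 0.17) and Ulk1 (-0.05, SE 0.12) were near 0.

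The metallothioneins, small metal-binding proteins induced by zinc, glucocorticoids and stress, had the most negative list median, -2.04 over 2 genes. Mt2 was at 3.02, 2.33, 2.7, 3.32 and 1.78 CPM in vehicle rest, 15.7, 47.5, 14.3, 24.5 and 5.25 in vehicle exercise, 8.46, 6.44, 3.10, 4.53 and 3.73 in knockout rest and 4.28, 11.6, 3.94, 11.7 and 5.66 in knockout exercise. Vehicle samples of Mt2 did not overlap between rest and exercise, and the knockout-labelled groups did. Mt2 rose in vehicle by 3.02 (edgeR adjusted p = 0.00803), its knockout-labelled response was 0.50, and the interaction was -2.53 (SE 0.72). Mt1, at 3.22 to 11.1 CPM in vehicle rest and 13.3 to 45.1 in vehicle exercise against 5.65 to 17.2 in knockout rest and 12.2 to 19.0 in knockout exercise, differed by -1.56 (SE 0.50), and by -0.94 without the slow-poor libraries. The exons of Mt2 overlap those of the antisense gene Gm45774, whose difference was -2.28, and the reads of both cannot be told apart without strand.

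Heat shock genes had 18 of 20 members below 0 and a median of -0.34 (-0.19 without knockout rest replicate 2). At an unadjusted p under 0.05 there were 7 negative members and 1 positive one, and 3 negative ones with scaling by library size only. Hspa1b, an inducible HSP70, was at 8.35, 5.82, 7.48, 2.34 and 3.33 CPM in vehicle rest, 181, 10.2, 164, 104 and 24.5 in vehicle exercise, 12.1, 20.9, 6.53, 4.96 and 6.07 in knockout rest and 53.8, 50.8, 41.8, 2.16 and 22.9 in knockout exercise. Vehicle exercise was split into 3 high and 2 low libraries, and knockout exercise replicate 4 was no higher than resting muscle. Hspa1b rose in vehicle by 4.14 (edgeR adjusted p = 0.0289), had a response of 1.77 in knockout-labelled muscle, and had an interaction of -2.37 (SE 1.12). Hspa1a, whose near-identical sequence makes the division of reads between both genes uncertain, differed by -2.18 (SE 0.93).

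The chaperones beside HSP70 had smaller differences. Hsp90aa1, the inducible HSP90, was at 37.6 to 51.5 CPM in vehicle rest, 56.6 to 187 in vehicle exercise, 41.5 to 103 in knockout rest and 51.1 to 105 in knockout exercise, with an interaction of -0.97 (SE 0.44). Dnaja1, an HSP40 cochaperone, was at 35.3 to 47.2, 55.7 to 105, 40.3 to 63.3 and 45.1 to 79.5 CPM in the same order of groups, with -0.65 (SE 0.25). Hspa4l (-1.25, SE 0.45), Hsph1 (-0.46, SE 0.19) and Hspe1 (-0.51, SE 0.22) were the other negative members at that p. Hsf1, the factor that drives the family, had the 1 positive difference among them (0.25, SE 0.12). Constitutive members were near 0, with Hsp90ab1 at -0.07 (SE 0.14) and Hspa8 at -0.19 (SE 0.14). Without the slow-poor libraries 17 of the 20 heat shock genes were negative, with a median of -0.26.

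Lpin1 was the metabolic gene with the smallest interaction p. It encodes lipin 1, a phosphatidate phosphatase and coactivator of fat oxidation. Lpin1 was at 263, 275, 296, 298 and 287 CPM in vehicle rest, 429, 411, 486, 459 and 337 in vehicle exercise, 441, 415, 400, 422 and 359 in knockout rest and 413, 408, 437, 442 and 438 in knockout exercise. As for Nfil3, vehicle rest lay below the 3 other groups, which overlapped. Lpin1 rose in vehicle by 0.58 (edgeR adjusted p = 0.00179) and was higher in knockout-labelled muscle at rest by 0.52 (edgeR adjusted p = 0.000809). Its response in knockout-labelled muscle was 0.07 (edgeR adjusted p = 1.00), and the interaction was -0.51 (SE 0.13, edgeR adjusted p = 0.671). The other 12 metabolic genes of acute exercise had an unadjusted p above 0.05, with 9 of the 13 below 0 and a median of -0.16, which went to 0.08 without the slow-poor libraries. Ppargc1a, the coactivator PGC-1α, differed by -0.95 with an SE of 0.78, and by -0.38 without vehicle exercise replicate 3, from 36.0 to 268 CPM in vehicle exercise and 22.7 to 134 in knockout exercise. Pdk4 (-0.16, SE 0.34), Slc2a4, the glucose transporter GLUT4 (-0.04, SE 0.12), and Hk2 (-0.06, SE 0.25) were near 0.

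In the insulin and IGF list 10 of 16 genes were negative, with a median of -0.06. Irs1, the insulin receptor substrate, was at 56.0 to 65.3 CPM in vehicle rest, 64.0 to 145 in vehicle exercise, 65.6 to 121 in knockout rest and 63.9 to 93.5 in knockout exercise, with an interaction of -0.85 (SE 0.26, edgeR adjusted p = 0.723). Igf1 differed by -1.33 (SE 0.49). Glucose uptake genes were balanced, with 5 of 12 negative and a median of 0.07, and Pdp1, a phosphatase that activates pyruvate dehydrogenase, differed by 0.44 (SE 0.17), or 0.26 without the slow-poor libraries. Glycolysis and glycogen genes (13 of 18 negative, median -0.08) and fatty acid oxidation genes (14 of 22, median -0.05) had 0 members at an unadjusted p under 0.05, and fatty acid oxidation turned to 3 of 22 negative with a median of 0.12 without the slow-poor libraries.

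Nuclear-encoded subunits of the respiratory chain had lower responses in knockout-labelled muscle across the whole list. All 41 of 41 were below 0, against 49.7% of all genes, with a range of -0.96 to -0.05 and a median of -0.27. At an unadjusted p under 0.05 there were 10 negative members, and 4 with scaling by library size only, and none passed the adjustment. Without knockout rest replicate 2 the median was -0.17, with 38 of 41 below 0. The vehicle response was positive in 40 of the 41 and the knockout-labelled response in 2, with medians of 0.15 and -0.13, and 0 members were called in either. Ndufa2, a complex I subunit, had the smallest p of the list. It was at 83.5, 71.8, 85.6, 92.1 and 68.1 CPM in vehicle rest, 110, 106, 104, 80.4 and 85.7 in vehicle exercise, 103, 92.4, 77.7, 78.2 and 81.4 in knockout rest and 75.6, 66.8, 90.4, 56.1 and 73.8 in knockout exercise. All 4 groups of Ndufa2 overlapped their neighbours, and the interaction was -0.53 (SE 0.17, edgeR adjusted p = 0.728). Others were Ndufa1 (-0.86, SE 0.32, and -0.57 without the slow-poor libraries) and the cytochrome c oxidase subunits Cox5b (-0.60, SE 0.24) and Cox5a (-0.37, SE 0.15). The smallest differences were in Atp5c1 (-0.05, SE 0.14), Ndufs1 (-0.08, SE 0.19) and Atp5a1 (-0.08, SE 0.17).

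The mean log2 CPM of these 41 subunits ran from 7.40 to 7.97 in vehicle rest, 7.75 to 8.23 in vehicle exercise, 7.75 to 8.35 in knockout rest and 7.61 to 8.11 in knockout exercise. The groups overlapped in every pairing. Slow fibres are rich in mitochondria, and the slow-fibre markers had differences of the same sign, with 9 of 10 below 0 and a median of -0.92. Leaving out 1 library moved that median from -1.74 (without knockout exercise replicate 5) to -0.33 (without vehicle exercise replicate 3). Their mean log2 CPM was 5.96 in vehicle rest, 4.70 in vehicle exercise, 7.03 in knockout rest and 4.59 in knockout exercise. With the slow-fibre level as a covariate 40 of the 41 subunits were negative, with a median of -0.19 and 12 at an unadjusted p under 0.05. Without the slow-poor libraries 39 were negative, with a median of -0.14 and 4 at that p. The share of the difference that goes with fibre makeup was not tested beyond these values. Mitochondrially encoded subunits had 9 of 12 below 0 and a median of -0.17, which was -0.01 without the slow-poor libraries. Among them mt-Co3 differed by -1.08 (SE 0.41), or -0.59 without those libraries.

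**Figure D4:**
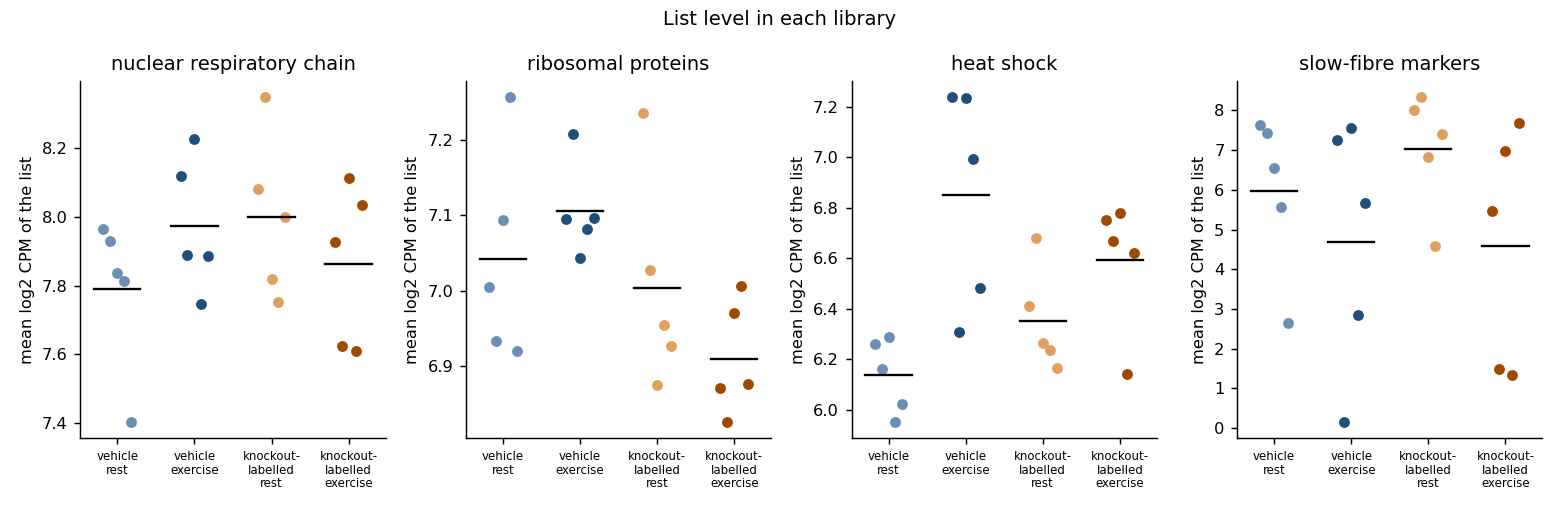
Mean log2 CPM (y axis) of 4 gene lists in each of the 20 libraries, by group (x axis), with a bar at the group mean. Nuclear-encoded respiratory chain genes have overlapping groups. Ribosomal protein groups overlap except that vehicle exercise (7.04 to 7.21) lies above knockout exercise (6.83 to 7.01). Heat shock genes have their highest mean in vehicle exercise, where the range overlaps both knockout-labelled groups. Slow-fibre markers span from 0.15 to 8.33 across libraries.

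The mitochondrial ribosome list held Mrps6, the third gene that DESeq2 called. Mrps6, a protein of the small mitochondrial ribosomal subunit, was at 3.36, 3.67, 3.19, 3.81 and 3.89 CPM in vehicle rest, 5.54, 5.23, 5.56, 6.04 and 5.44 in vehicle exercise, 5.10, 5.63, 3.99, 4.42 and 4.05 in knockout rest and 3.36, 2.81, 4.16, 2.7 and 1.89 in knockout exercise. Vehicle exercise lay above vehicle rest without overlap, knockout exercise tended below knockout rest with 1 sample inside its range, and every vehicle exercise value lay above every knockout exercise value. The responses were 0.63 in vehicle (edgeR adjusted p = 0.113) and -0.64 in knockout-labelled muscle (edgeR adjusted p = 0.813), and the genotype difference after exercise was -0.91 (edgeR adjusted p = 0.00225). The interaction was -1.27 (SE 0.25, 95% interval -1.79 to -0.75), with an adjusted p of 0.275 in edgeR and 0.0227 in DESeq2, and it was -1.22 without the slow-poor libraries. Mrps6 is a low-count gene, and its exons overlap those of Slc5a3, a myo-inositol transporter gene, on the same strand, whose difference was -0.55 (unadjusted p = 0.346).

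Of the 20 mitochondrial ribosome genes 17 were negative, with a median of -0.14 and 4 at an unadjusted p under 0.05, and without the slow-poor libraries 13 were negative with a median of -0.05. Tomm7, a small subunit of the outer-membrane import channel, was among the 10 smallest p of the negative side. It was at 13.5, 16.1, 19.7, 22.5 and 15.2 CPM in vehicle rest, 25.3, 35.5, 27.8, 19.3 and 19.4 in vehicle exercise, 28.6, 18, 19.8, 20.3 and 15.1 in knockout rest and 16.9, 12.3, 16.3, 14.4 and 15.4 in knockout exercise. The exercised vehicle samples of Tomm7 lay above all exercised knockout-labelled ones, and its interaction was -0.98 (SE 0.25).

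Cytosolic ribosomal proteins had 22 of 28 members below 0 with a small median of -0.16, and the count stayed between 22 and 25 of 28 over all alternatives. Rps16 had the smallest p of the list. It was at 75.2, 67.9, 84.1, 87.4 and 72.2 CPM in vehicle rest, 92.7, 96.3, 86.1, 79.1 and 80.8 in vehicle exercise, 90.9, 78.4, 66.6, 77.4 and 73.0 in knockout rest and 65.2, 55.3, 61.7, 53.8 and 65.6 in knockout exercise. All 5 knockout exercise values of Rps16 lay below the other 15. Its genotype difference was 0.00 at rest (edgeR adjusted p = 0.999) and -0.53 after exercise (edgeR adjusted p = 0.000967), and the interaction was -0.53 (SE 0.13, edgeR adjusted p = 0.671). Rps19 differed by -0.43 (SE 0.19), or -0.26 without the slow-poor libraries, and Rps6 (0.01, SE 0.12) and Rpl7 (0.01, SE 0.13) did not lean either way. Ribosomal protein genes have many near-identical pseudogenes, so their counts depend on how shared reads were assigned.

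**Figure D5:**
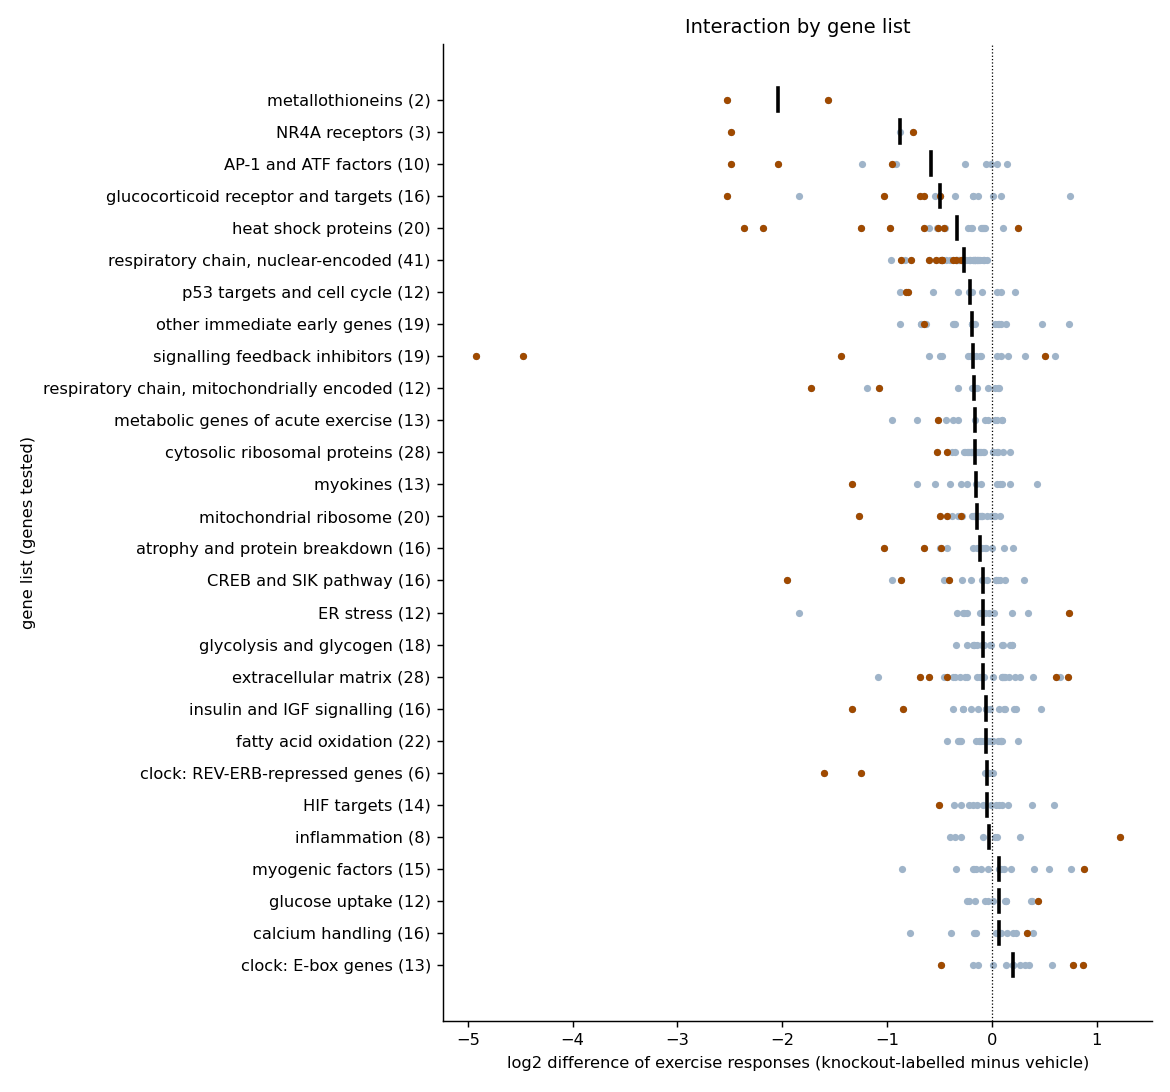
Log2 difference of exercise responses (x axis, knockout-labelled minus vehicle) of each tested gene in 28 lists (y axis, number of genes tested in brackets), with brown points at an unadjusted p under 0.05, black bars at list medians and a dotted line at the median of all genes. The metallothioneins have the lowest median at -2.04, all 41 nuclear-encoded respiratory chain genes lie left of 0, and the E-box clock genes have the highest median at 0.20.

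Positive differences included genes lower after exercise in vehicle and genes higher after exercise in knockout-labelled muscle. Fzd7, a WNT receptor of muscle stem cells and growing fibres, was at 66.7, 53.8, 85.6, 80.6 and 84.5 CPM in vehicle rest, 47.6, 41.2, 41.0, 28.0 and 49.8 in vehicle exercise, 71.0, 57.5, 81.3, 74.0 and 69.3 in knockout rest and 83.1, 74.6, 64.6, 61.5 and 57.9 in knockout exercise. The 5 vehicle exercise values of Fzd7 lay below the other 15. Fzd7 fell in vehicle (-0.84, edgeR adjusted p = 0.00586), and the interaction was 0.79 (SE 0.21, edgeR adjusted p = 0.671). Sfrp1, a secreted WNT antagonist, was at 1.96 to 2.78 CPM in vehicle rest, 0.821 to 2.34 in vehicle exercise, 0.804 to 2.05 in knockout rest and 2.23 to 3.35 in knockout exercise, so that only knockout-labelled samples separated by exercise, upward. Its interaction was 1.65 (SE 0.40). Sfrp1 had 7 to 19 counts per library in knockout rest and 20 to 31 in knockout exercise, so its values rest on few reads.

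Dock8, a guanine nucleotide exchange factor of immune cells, had a like shape, with 3.05 to 5.88 CPM in vehicle rest, 2.39 to 4.10 in vehicle exercise, 1.77 to 3.48 in knockout rest and 3.94 to 5.67 in knockout exercise, and an interaction of 1.32 (SE 0.31), or 0.88 without the slow-poor libraries. Zfp719, a zinc-finger gene, was at 1.96 to 3.28 CPM in vehicle exercise and 4.05 to 6.61 CPM in knockout exercise, with an interaction of 1.16 (SE 0.28). Both are low-count genes, with 16 to 28 counts per library for Dock8 in knockout rest and 18 to 32 for Zfp719 in vehicle exercise. The leukocyte and red cell markers were balanced, with 6 of 10 negative. Cd74, an antigen-presentation gene, differed by 0.81 (SE 0.32), or 0.36 without the slow-poor libraries, and the globin gene Hba-a2 by -1.94 (SE 0.68), while summed blood markers ran from 79.4 to 399 CPM in vehicle exercise and from 93.3 to 186 CPM in knockout exercise. The part of blood or immune cells in the values of Dock8 was not tested.

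Some of the leading RNAs lie in or across other genes. Gm11266, an antisense transcript within an intron of Nfib, had the smallest p of the positive side, with 5.04 to 6.22 CPM in vehicle rest, 1.44 to 2.28 in vehicle exercise, 2.88 to 3.99 in knockout rest and 2.16 to 3.06 in knockout exercise. Gm11266 fell in vehicle (-1.50, edgeR adjusted p = 5.56e-05), was lower in knockout-labelled muscle at rest (-0.72, edgeR adjusted p = 0.0100), and had an interaction of 1.12 (SE 0.24, edgeR adjusted p = 0.595). Gm11266 had 14 to 21 counts per library in vehicle exercise, so its response rests on few reads. Nfib itself differed by 0.21 (unadjusted p = 0.102). Gm43063 lies within an intron of Ampd1 on the same strand, fell in vehicle (-1.38, edgeR adjusted p = 0.000814) and differed by 1.01 (SE 0.27), or 0.52 without the slow-poor libraries. Gm15441 overlaps exons of Txnip, the thioredoxin-interacting brake on glucose uptake, on the other strand; Gm15441 differed by 1.00 (SE 0.28) and Txnip by 0.85 (unadjusted p = 0.00456). On the negative side Tmem120b (-0.86, SE 0.23) overlaps Rhof (-0.84, unadjusted p = 0.00452) on the other strand, and Gm11100 (-0.52, SE 0.14) overlaps Thoc7 (-0.15, unadjusted p = 0.239). Other named genes also overlap exons on the other strand. Examples are Bhlhe40 (0610040F04Rik, 0.88), Foxo1 (Gm20402, -1.03), Cox5a (Gm26631, -0.44), Irs1 (Gm9747, -0.58) and Adamts9 (Gm15737, 0.64), each with the partner's difference. Without strand the members of such pairs cannot be told apart where their exons meet. Gm14319 (-0.96, SE 0.25) and 2410089E03Rik (0.83, SE 0.24) complete the 10 genes with the smallest p in each direction among those with a mean log2 CPM of 1 or more.

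Matrix genes had no common direction, with 15 of 28 negative and a median of -0.08. Aebp1, a collagen-binding protein, was far lower in knockout-labelled muscle at rest (-2.73, edgeR adjusted p = 7.71e-14) and after exercise (-2.12, edgeR adjusted p = 1.17e-11). It was at 143 to 184 CPM in vehicle rest, 118 to 157 in vehicle exercise, 21 to 30.9 in knockout rest and 27.3 to 32.0 in knockout exercise, and its interaction was 0.61 (SE 0.15, edgeR adjusted p = 0.671). Adamts9, a matrix protease, rose in vehicle by 1.52 (edgeR adjusted p = 5.56e-05), had a response of 0.83 in knockout-labelled muscle, and differed by -0.69 (SE 0.25). The basement membrane collagens Col4a1 (-0.60, SE 0.23) and Col4a2 (-0.42, SE 0.17) share a promoter region, and their exons overlap on opposite strands. Fn1, fibronectin, was at 50.8 to 59.2 CPM in knockout exercise against 29.7 to 44.0 in knockout rest, while its vehicle groups overlapped, and differed by 0.73 (SE 0.31), or 0.38 without the slow-poor libraries.

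Cdkn1a, the cell cycle inhibitor p21, had a genotype difference much larger than its interaction. It was at 4.41, 7.17, 6.74, 6.77 and 6.44 CPM in vehicle rest, 12.8, 13.8, 13.8, 17.7 and 14.9 in vehicle exercise, 88.4, 77.1, 62.5, 129 and 104 in knockout rest and 88.2, 122, 117, 167 and 112 in knockout exercise. Knockout-labelled samples lay far above vehicle samples in both states, with a log2 fold change of 3.87 at rest (edgeR adjusted p = 5.45e-11) and 3.05 after exercise (edgeR adjusted p = 1.07e-09). Cdkn1a rose with exercise in vehicle by 1.21 (edgeR adjusted p = 0.00407), its knockout-labelled response was 0.39, and the interaction was -0.82 (SE 0.26, edgeR adjusted p = 0.723). That sign holds for fold changes only. Mean CPM of Cdkn1a went from 6.31 to 14.6 in vehicle and from 92.3 to 121 in knockout-labelled muscle, the larger rise in CPM. In its list of p53 and cell cycle genes 9 of 12 were negative, with a median of -0.21.

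The largest negative values of the named genes rested on single libraries. Socs3, a feedback inhibitor of cytokine signalling, was at 43.8, 1.26, 0.664, 0.647 and 1.17 CPM in knockout rest, against 0.888 to 1.60 in vehicle rest, 1.85 to 13.3 in vehicle exercise and 1.29 to 2.43 in knockout exercise. Its interaction was -4.47 (SE 1.54) with knockout rest replicate 1 and -1.16 without it. Socs1 was at 29.3 CPM in the same library and at 0.106 to 1.08 in the other 4, and its difference went from -4.93 (SE 2.11) to -1.25 without it. Socs1 was also uneven in vehicle exercise, from 0 to 14.3 CPM with a median of 0.109 CPM. In the rest of the feedback list, the MAP kinase phosphatase Dusp1 (0.16, SE 0.23), the Sprouty gene Spry1 (-0.15, SE 0.23) and Gadd45a (0.09, SE 0.28) were near 0. Errfi1, an EGF receptor inhibitor, differed by 0.51 (SE 0.19).

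The remaining lists gave little. HIF targets had 8 of 14 negative and a median of -0.04, with P4ha1, a collagen prolyl hydroxylase, at -0.50 (SE 0.21). ER stress genes had 8 of 12 negative (median -0.09), myokines 8 of 13 (median -0.15), myogenic factors 7 of 15 (median 0.06), calcium handling genes 5 of 16 (median 0.07) and inflammation genes 4 of 8 (median -0.03). Myod1 differed by 0.88 (SE 0.41), or 0.48 without the slow-poor libraries, and the immune checkpoint ligand gene Cd274 by 1.23 (SE 0.45). Of the myokine list, Il6, Fgf21 and Gdf15 did not pass the filter on low counts. Marker lists of other cell types had 0 to 2 members at an unadjusted p under 0.05 each. Fat cell markers had 5 of 8 negative (median -0.30, and 1.20 without the slow-poor libraries), endothelial markers 3 of 9 (0.03), fibroblast markers 3 of 9 (0.17), smooth muscle markers 4 of 6 (-0.11), nerve markers 5 of 5 (-0.32, but 0 of 5 and 0.10 without vehicle exercise replicate 4), satellite cell markers 4 of 6 (-0.18) and fast-fibre genes 6 of 10 (-0.03).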

How the data were processed

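Gene-level counts were deposited by the authors as 1 table of 53311 rows for 20 gastrocnemius RNA-seq samples. The submitters' processing notes name Partek, STAR 2.7.8a, DESeq2, mm10 and GRCm39, with no role or order. The counting settings, strand and annotation are not given in the sources used here. From these counts, genes were kept by edgeR 4.0.16 filterByExpr with a minimum count of 10, leaving 13560 rows with 99.83% of the counts. Scaling between libraries used TMM (trimmed mean of M-values), and robust quasi-likelihood fits had 1 mean per group over all 20 samples and no covariate. The interaction was tested as a contrast and adjusted by Benjamini-Hochberg over all genes, in R 4.3.3. Each SE was back-calculated as the absolute log2 difference over the square root of the quasi-likelihood F statistic. The intervals were built from that SE. Levels are TMM-scaled CPM, and log2 CPM used a prior count of 2. Alternatives were DESeq2 1.42.0, limma-voom (limma 3.58.1), other scalings and filters, a non-robust fit, a replicate block, a slow-fibre covariate, mitochondrial genes left out and each library left out in turn. Scripts were tested on simulated data.

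Named genes were the 10 with the smallest interaction p in each direction at a mean log2 CPM of at least 1, any gene called by edgeR, DESeq2 or limma-voom, list members with an unadjusted p under 0.05, Arntl, and the list member with the largest difference. Other list members were named, after their values were seen, to show the rest of a list. The comparison, the gene lists and these rules were chosen with earlier results of these data known. Overlaps between genes come from GENCODE M21, and promoters from RefSeq (GRCm38.p6). No 2 libraries of the same group agreed within sampling noise, and pairs from different groups were not compared in this way. Same-numbered libraries correlated by more than 0.1 in 15 of 30 pairs, with a median of 0.089 against -0.017 in 120 other pairs. Of the 20 libraries, 4 correlated best with a library of their own number. These values do not settle whether the numbers pair samples. No label says that they do, so the main fit had no block. Values of some list members are not reported here.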

Additional observations from a re-analysis of the deposited data

Results flagged for a closer look

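DESeq2 gave 3 genes a different exercise response in the genotypes. Its adjusted interaction p was 0.00351 for Sik1, 0.00351 for Nfil3 and 0.0227 for Mrps6, where edgeR's lowest adjusted p was 0.275.

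In 396 groups of 5 libraries (99 named genes in 4 groups), 16 held 1 library whose gap to its nearest neighbour was over 0.71 of the group's range. That is fewer than 1 in 20 groups, a rate that holds only for independent, normally spread values. The groups here share the same libraries and include low-count genes. The rate therefore decides nothing, and the libraries are listed as values only. High libraries were Socs3 at 43.8 CPM in knockout rest replicate 1 (others 0.647 to 1.26), Tmem120b at 28.3 CPM in vehicle exercise replicate 3, Ndufs4 at 150.2 CPM in the same library and Pdp1 at 89.6 CPM in vehicle rest replicate 2. Vehicle rest replicate 5 was low for 4 genes, with Ndufa1 at 26.2, Hspe1 at 32.8, Ndufa5 at 68.3 and Cox8b at 104.4 CPM, and it is also 1 of the 5 libraries lowest in slow-fibre markers. Knockout exercise replicate 4, another of those 5, was low for the heat shock genes, with Hspa1a at 7.15 and Hspa1b at 2.16 CPM, and had 0 CPM of Fosb. The other low libraries were Cdkn1a at 4.41 CPM in vehicle rest replicate 1, Plk2 at 1.48 CPM in vehicle rest replicate 4, Pde4d at 180.4 CPM in vehicle exercise replicate 1, mt-Co3 at 18.5 CPM in knockout exercise replicate 2 and Fosb at 0 CPM in knockout rest replicate 3.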

How the results depend on the processing

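DESeq2 called 3 genes, with differences of -1.25 for Nfil3, -1.96 for Sik1 and -1.28 for Mrps6. Leaving out each library gave 0 to 1 called genes and 688 to 909 at an unadjusted p under 0.05. The 1 call was Nfil3 (-1.36, edgeR adjusted p = 0.0385) without knockout rest replicate 3. With no filter 1364 genes were at that unadjusted p. With the replicate number as a block 0 genes were called and 774 were at that p. Negative differences made up 55.6% of those genes with TMM scaling, 42.3% with library size only, 49.8% with upper-quartile scaling and 49.7% with a filter at 50 counts. Of the 99 named genes, 96 kept their sign without the slow-poor libraries and 36 were over 1.5 times smaller. Signs turned for Socs1 with limma-voom (0.25), for Cidec with limma-voom (1.39) and without the slow-poor libraries (1.27), for Mb without them (0.048), and for Arntl with limma-voom (0.0038) and without them (0.21). Leaving out each library gave ranges of -0.78 to 0.027 for Mbp, -0.92 to 1.10 for Cidec, -0.54 to 0.22 for Mb and -0.19 to 0.15 for Arntl. The median of the NR4A list was -2.34 without vehicle rest replicate 3 and -0.63 without vehicle rest replicate 4. That of the glucocorticoid list was -0.21 without the slow-poor libraries. The cause of these shifts was not tested.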
